A study of Homo sapiens with 2 samples.

Results

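The HIST1 cluster on the short arm of human chromosome 6, band 6p22, is the largest group of replication-dependent histone genes. Its members were taken as every gene interval on chromosome 6 whose symbol begins with HIST1H, which gave 55 genes among 40237 intervals and 35775 nuclear symbols. All 55 lay between 25726291 and 27861669 of chromosome 6 (hg19), so that symbol and position fit the name of the cluster. Of the members, 21 start beyond 27 Mb of the chromosome and are called the 27 Mb subcluster here, and 34 start before 26.5 Mb and are called the 26 Mb subcluster. By the histone they encode, 6 are H1, 12 H2A, 15 H2B, 10 H3 and 12 H4 genes. The mark measured was H3K9me3, trimethylation of lysine 9 of histone H3, by ChIP-seq of KBM7, a leukemia line (chronic myeloid) that is near-haploid, with no treatment named in the labels. There was 1 library from the H3K9me3 antibody and 1 from IgG, and no IgG value was used. With 1 library there is no replicate, no test and no p-value, and every interval below is a 95% exact Poisson or binomial interval that covers counting error only.

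Replication-dependent histone genes are short, carry no introns, and are copied into mRNAs that end in a stem-loop in place of a poly(A) tail. They supply the bulk of H1, H2A, H2B, H3 and H4 during S phase, when new chromatin is assembled behind the replication fork, and many H2A and H2B genes lie head to head over a shared promoter. H3K9me3 is best known as a mark of silenced repeats and tandem gene families, and it sits on the very H3 protein that some of these genes encode. Expression was not measured in these data.

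The value used throughout is a corrected score, the reads of an interval divided by its length plus an overhang of 213 bp. Deposited reads per kb ran higher in shorter intervals, and 41 of the 55 HIST1 intervals are under 1 kb. The overhang of 0.213 kb came from a line through the median reads of 12 length bins holding 12073 intervals between 0.05 and 1.5 kb. The median over all nuclear symbols was then 39.2 corrected reads per kb, and over the 1795 symbols of chromosome 6 it was 41.6. Members at 2 times the all-symbol median or more (78.5) are called high here, and those at 0.5 times the median or less (19.6) low.

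**Figure D1:**
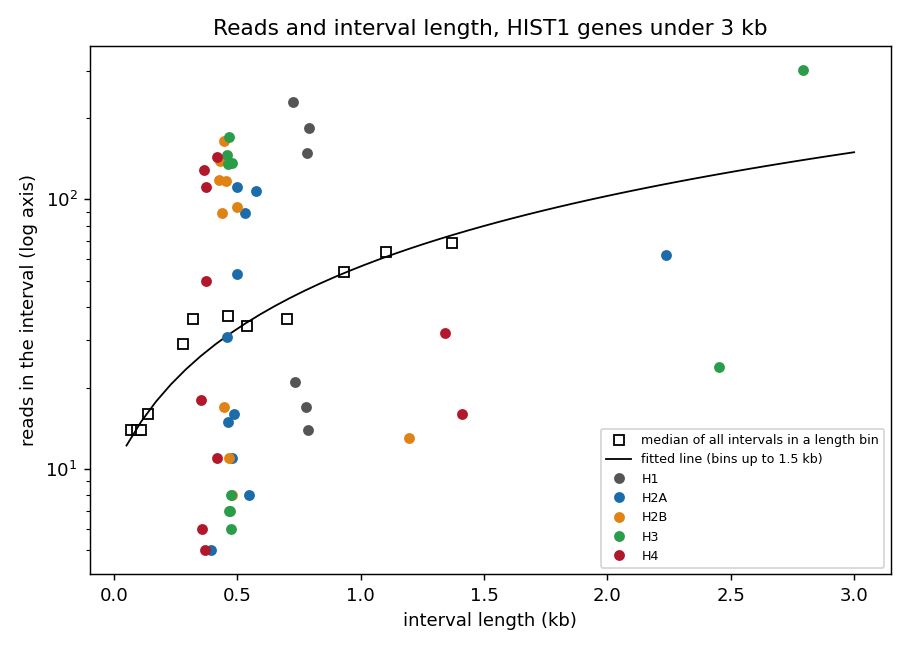
Reads per interval (log axis) against interval length in kb for the HIST1 genes under 3 kb, coloured by histone type, with the median of all intervals in each length bin (open squares) and the fitted line behind the overhang. Genes of about 0.4 to 0.6 kb reach from 5 to 171 reads, on both sides of the line.

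HIST1 genes ranged from strong H3K9me3 signal to almost none, with many genes near either end. Of the 55 members 21 were high (38.2%), against a background of 16.8% of all nuclear symbols and 12.2% of protein-coding ones. Another 17 were low (30.9%), against a background of 21.6% of all and 25.4% of protein-coding symbols. The median member, at 36.6, was close to the median of all symbols and describes few of them. The lower quartile was 16.1 and the upper 152. Among the 1098 intervals of 0.354 to 0.79 kb, the range of the short members, 28.0% were high and 24.7% low, with a median of 44.6. Shares nearer to those of the cluster were found in the 98 other protein-coding genes of that length, of which 35.7% were high and 25.5% low, with a median of 55.7. Of the 41 members under 1 kb 20 were high (48.8%), 14 low (34.1%) and 7 in between, with a median of 74.8. The 14 members of 1 kb or more had 1 high, 3 low and 10 in between, with a median of 31.7.

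At the top stood HIST1H3F with 171 reads over 0.466 kb and a corrected score of 252 (216 to 293), followed by HIST1H2BM with 164 reads over 0.446 kb and 249 (212 to 290.2). HIST1H1T came next with 230 reads over 0.725 kb and 245 (215 to 279). At the bottom stood HIST1H2AD with 5 reads over 0.393 kb and 8.26 (2.68 to 19.3), HIST1H4D with 5 reads over 0.367 kb and 8.63 (2.80 to 20.1), and HIST1H3B with 6 reads over 0.472 kb and 8.76 (3.22 to 19.1). The counting intervals of the genes at the top and of those at the bottom lie far apart. Just inside the high call lay HIST1H4J at 85.2 and just outside it HIST1H2AJ at 74.8. Just inside the low call lay HIST1H4C at 17.5 and just outside it HIST1H4I at 20.6.

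The 27 Mb subcluster had a higher median than the 26 Mb subcluster, and few of its genes were low. Its 21 members had a median of 59.8, against 29.6 for the 34 members of the 26 Mb subcluster, a ratio of 2.02. High members made up 9 of 21 genes in the 27 Mb subcluster and 12 of 34 in the 26 Mb subcluster. Low members made up 2 of 21 in the 27 Mb subcluster, HIST1H3H and HIST1H2BO, and 15 of 34 in the 26 Mb subcluster. With reads pooled over all corrected length the ratio was 1.17, from 58.8 (56.6 to 61.0) in the 27 Mb subcluster and 50.2 (48.8 to 51.7) in the 26 Mb subcluster. Among members under 1 kb the medians were 85.2 over 15 genes and 24.0 over 26 genes, a ratio of 3.55. Of those 26 genes 12 were high, 12 low and 2 in between, so their median lies between 2 large groups and describes few of them. For these short members of the 27 Mb and 26 Mb subclusters, 53.3% and 46.2% were high. Their upper quartiles were 180 and 188, and their pooled scores 108 and 95.2.

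The 27 Mb subcluster consists of a small block of 5 genes, from 27094058 to 27115317, and a large block of 16 genes, from 27775257 to 27861669, a division made after the values were seen. The large block had a median of 92.9, with 9 high and 2 low members. In the small block, which holds HIST1H2BJ, HIST1H2AG, HIST1H2BK, HIST1H4I and HIST1H2AH, none was high and none low. Scores there ran from 20.6 for HIST1H4I to 46.3 for HIST1H2AH, with a median of 25.3. Of these, HIST1H2AH alone has an interval under 1 kb. HIST1H4I lies wholly inside HIST1H2BK, and its reads are counted in both.

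**Figure D2:**
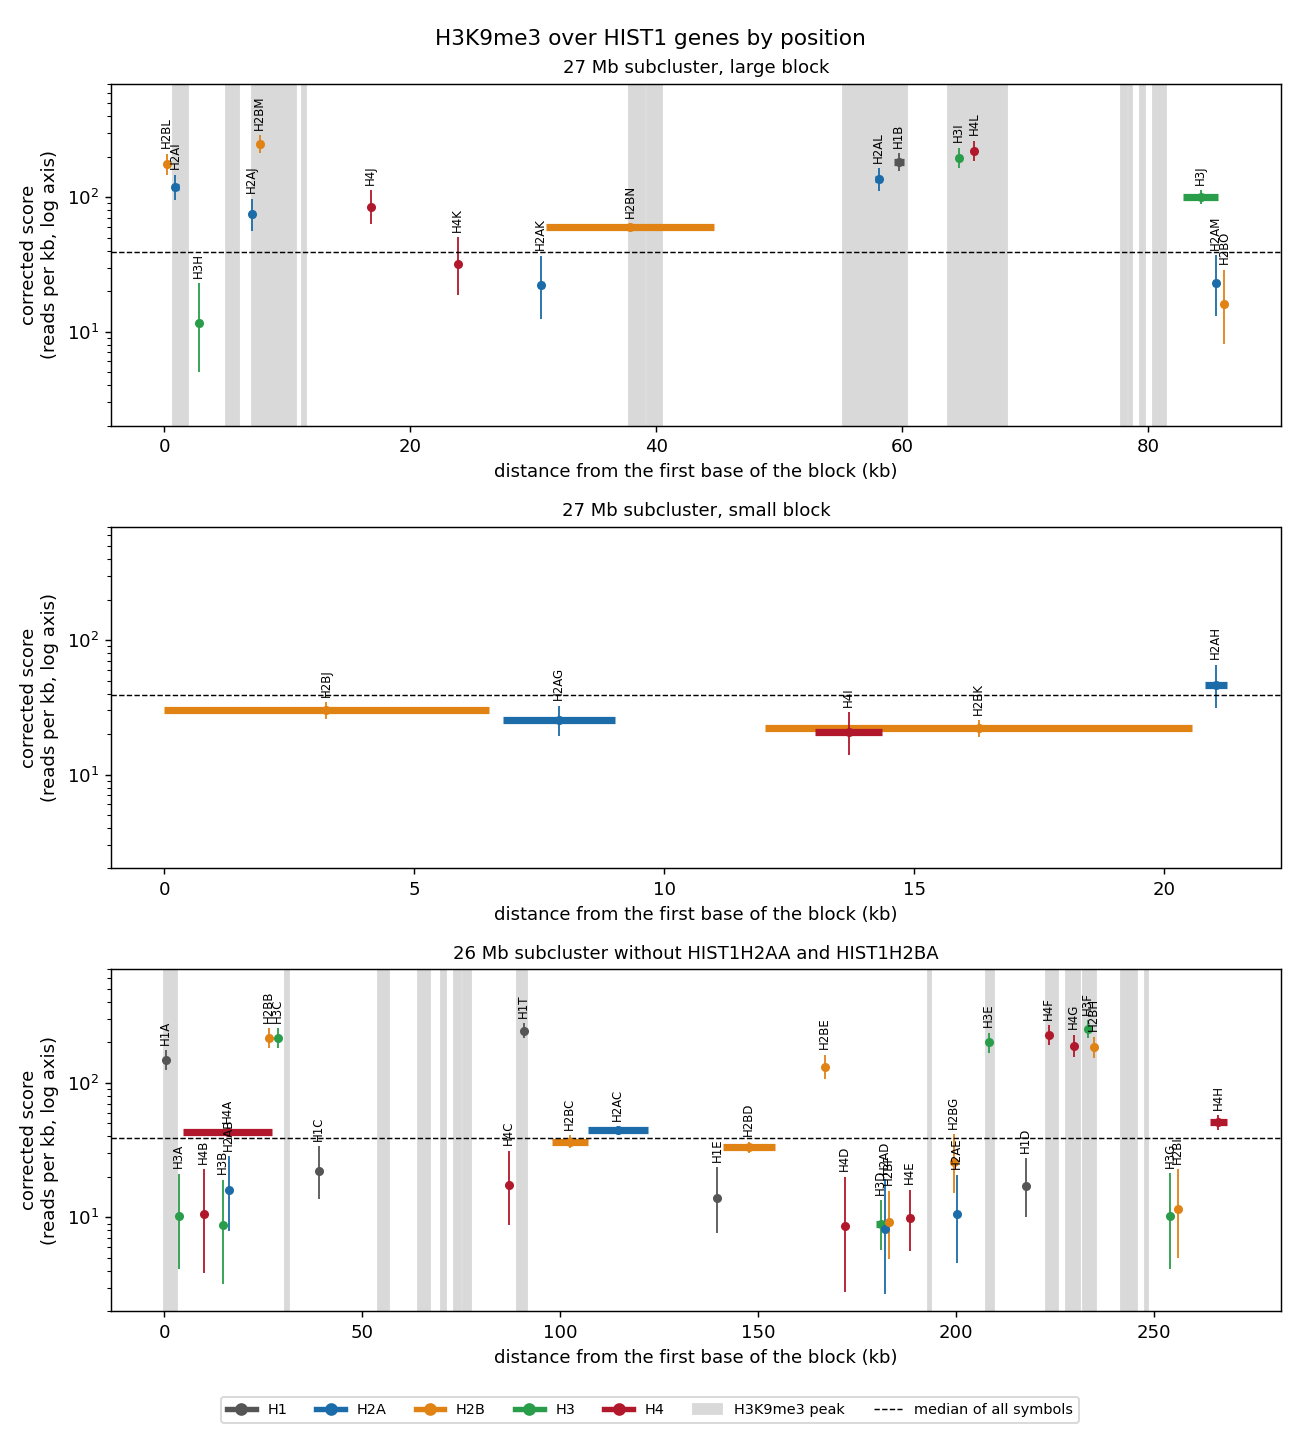
Corrected score (reads per kb, log axis) of each HIST1 gene against its distance in kb from the first base of its block, for both blocks of the 27 Mb subcluster and for the 26 Mb subcluster without HIST1H2AA and HIST1H2BA. Bars span the interval, vertical lines are 95% Poisson intervals, grey bands are peaks and the dashed line is the all-symbol median of 39.2. Along the 26 Mb subcluster genes of like call follow each other in places, and high and low genes are neighbours in others. Whether such runs exceed those of a random order was not tested. The small block of the 27 Mb subcluster has no peak.

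Some genes of like call followed each other, with abrupt changes in places. Among 49 pairs of members that follow each other without overlap inside a subcluster, 12 pairs were both high and 6 both low. Another 9 pairs held 1 high and 1 low gene, and 22 held at least 1 gene in between. Pairs of like high or low call thus numbered 18, among them HIST1H2BA and HIST1H1A, 289686 bp apart. Whether this is more than among neighbouring genes elsewhere was not tested. In the 27 Mb subcluster 6 pairs were both high, 0 both low and 1 mixed, and in the 26 Mb subcluster 6 were both high, 6 both low and 8 mixed. Most gaps were under 20 kb, and the widest, 289686 and 659939 bp, set off HIST1H2BA and HIST1H2AH. Neighbours differed at least 5 times in 12 of the 49 pairs. HIST1H1A, which encodes a linker histone, had 148 reads and a score of 149, and HIST1H3A, 2677 bp further on, had 7 reads and a score of 10.3. In the 27 Mb subcluster HIST1H2AI scored 119.7 and HIST1H3H, 1412 bp away, 11.7. HIST1H2AE at 10.5 and HIST1H3E at 200.1, 7671 bp apart, gave the largest of these ratios, 19.0. A run of consecutive high genes, HIST1H4F, HIST1H4G, HIST1H3F and HIST1H2BH, had scores of 228, 189, 252 and 185. A run of low ones, HIST1H4D, HIST1H3D, HIST1H2AD, HIST1H2BF and HIST1H4E, ran only from 8.26 to 9.87. HIST1H2AD lies wholly inside HIST1H3D, and its 5 reads are counted in both.

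Linker histone H1 genes, whose proteins bind the DNA between nucleosomes, lay on both sides. The 6 H1 genes had a median of 85.6, which lies in a wide gap between 3 high genes and the rest. HIST1H1T, the testis-specific linker histone gene, scored 245 and HIST1H1A 149 (126 to 175), both in the 26 Mb subcluster. HIST1H1B, the single H1 gene of the 27 Mb subcluster, scored 184 (158 to 212). The other H1 genes had few reads, with 21 for HIST1H1C, 17 for HIST1H1D and 14 for HIST1H1E. Their scores were 22.2 (13.8 to 34.0), 17.2 (10.0 to 27.5) and 14.0 (7.67 to 23.5), and no counting interval of this trio overlapped one of the high trio.

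H3 genes showed the cleanest split, with 5 high, 5 low and 0 in between. Most other types came near to it among genes under 1 kb. There 0 of 8 H3, 1 of 8 H4, 1 of 9 H2B, 1 of 6 H1 and 4 of 10 H2A genes were in between. The 10 HIST1H3 genes encode the same replication-dependent H3 protein, so genes with one product lay at opposite ends of the scale. In the 27 Mb subcluster HIST1H3I scored 197 (165 to 233) and HIST1H3J 101 (89.5 to 113), whereas HIST1H3H scored 11.7 (5.04 to 23.0). High in the 26 Mb subcluster were HIST1H3F at 252, HIST1H3C at 217 (184 to 256) and HIST1H3E at 200.1 (168 to 237). HIST1H3A, HIST1H3B, HIST1H3D and HIST1H3G, also of the 26 Mb subcluster, lay between 8.76 and 10.3, on 6 to 24 reads. The lowest high gene, HIST1H3J, and the highest low one, HIST1H3H, both belong to the 27 Mb subcluster. HIST1H3J is 2.79 kb long and overlaps HIST1H2AM, whose interval of 0.487 kb held only 16 reads, against 302 for HIST1H3J.

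H4 genes were spread over the whole range, although all but HIST1H4G encode one identical protein. Their median was 37.3, with 4 high, 4 low and 4 in between. In the 27 Mb subcluster HIST1H4L led with 128 reads and 222 (185 to 264), followed by HIST1H4J at 85.2 (63.3 to 112), HIST1H4K at 31.8 (18.8 to 50.2) and HIST1H4I at 20.6 (14.1 to 29.0). In the 26 Mb subcluster HIST1H4F scored 228 (192 to 268) and HIST1H4G, which encodes a diverged H4-like protein, 189 (156 to 228). The low H4 genes all lay in the 26 Mb subcluster. HIST1H4B, HIST1H4C, HIST1H4D and HIST1H4E had 6, 11, 5 and 16 reads and scores of 10.5, 17.5, 8.63 and 9.87. HIST1H4A at 42.8 and HIST1H4H at 50.9 were in between, but their intervals span 22.6 and 4.48 kb. The HIST1H4A interval contains HIST1H4B, HIST1H3B, HIST1H2AB and HIST1H2BB, so its score of 42.8 averages genes with 6, 6, 11 and 139 reads and the sequence between them.

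**Figure D3:**
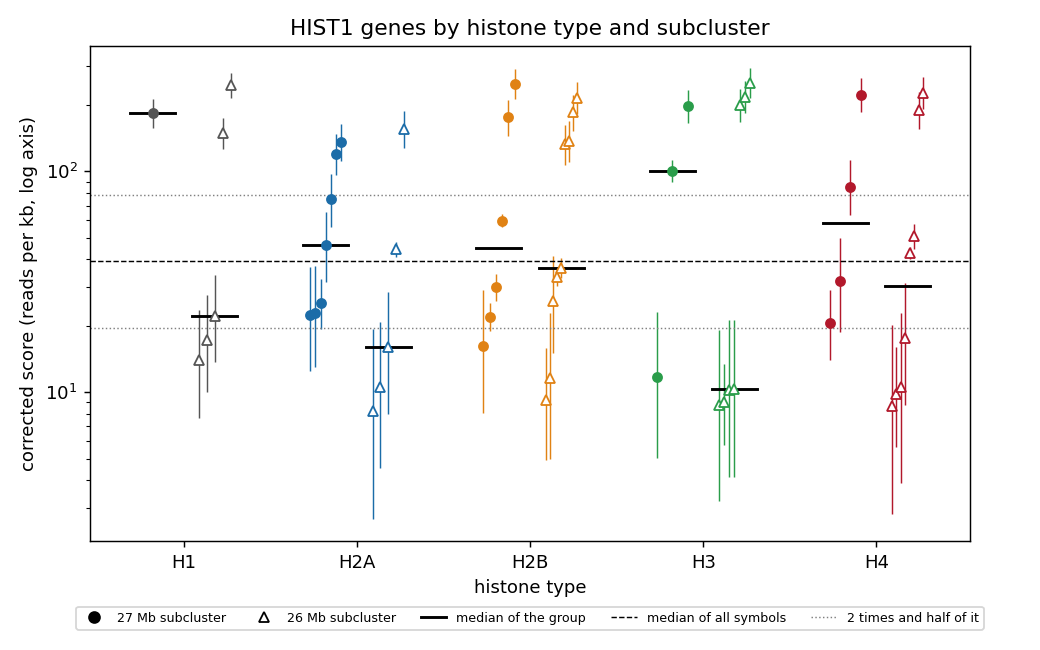
Corrected score (reads per kb, log axis) of each HIST1 gene by histone type, with filled circles for the 27 Mb subcluster and open triangles for the 26 Mb subcluster. Vertical lines are 95% Poisson intervals, thick bars group medians, the dashed line the all-symbol median and dotted lines 2 times and 0.5 times it. The H3 genes leave the band between the dotted lines empty.

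H2B genes had a median of 36.6 over 15 genes and H2A genes 34.8 over 12 genes. Of the H2B genes 6 were high, 3 low and 6 in between, and of the H2A genes 3 were high, 3 low and 6 in between. The high H2B genes of the 27 Mb subcluster were HIST1H2BM at 249 and HIST1H2BL at 176 (145 to 211). Those of the 26 Mb subcluster were HIST1H2BB at 216 (182 to 255), HIST1H2BH at 185, HIST1H2BA at 137 and HIST1H2BE at 132. HIST1H2BO in the 27 Mb subcluster, at 16.2, and HIST1H2BI and HIST1H2BF in the 26 Mb subcluster, at 11.6 and 9.24, were low. HIST1H2BC, HIST1H2BD, HIST1H2BJ, HIST1H2BK and HIST1H2BN have intervals of 6.48 to 13.7 kb, and all 5 were in between, at 22.0 to 59.8, as was the short HIST1H2BG at 25.9. High H2A genes were HIST1H2AL at 136 (112 to 165) and HIST1H2AI at 119.7 (96.1 to 147) in the 27 Mb subcluster and HIST1H2AA at 156 (128 to 188) in the 26 Mb subcluster. HIST1H2AB, HIST1H2AE and HIST1H2AD, all of the 26 Mb subcluster, were low at 15.95, 10.5 and 8.26. The H2A genes in between were HIST1H2AJ at 74.8, HIST1H2AH at 46.3, HIST1H2AG at 25.3, HIST1H2AM at 22.9 and HIST1H2AK at 22.3 in the 27 Mb subcluster and HIST1H2AC at 44.3 in the 26 Mb subcluster.

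Within each histone type the median of the 27 Mb subcluster was above that of the 26 Mb subcluster. The medians were 184 and 22.2 for H1 (1 and 5 genes), 46.3 and 15.95 for H2A (7 and 5 genes), 44.9 and 36.6 for H2B (6 and 9 genes), 101 and 10.3 for H3 (3 and 7 genes), and 58.5 and 30.2 for H4 (4 and 8 genes). For H3 the order turned round when overlapping intervals were left out, with 104 over 2 genes and 200.1 over 5 genes, and the ratio was 0.993 among genes under 1 kb. For the other types the order held without the overhang, with an overhang of 0.3 kb, without overlapping intervals, among genes under 1 kb and with pooled reads.

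H2A and H2B genes formed 10 divergent pairs, transcribed away from each other with 189 to 346 bp between the partners. Partners had the same call in 7 of 10 pairs, of which 2 were both high, 1 both low and the rest both in between. Among those in between, HIST1H2BN was 2.68 times HIST1H2AK and HIST1H2BK 0.476 times HIST1H2AH. Partners were within 2 times of each other in 6 pairs, and in 0 pairs was one high and the other low. Whether partners match more often than other neighbours was not tested. Among the 7 pairs in which neither gene overlaps another interval, 4 were within 2 times. The testis-specific pair HIST1H2BA and HIST1H2AA scored 137 and 156, HIST1H2BL and HIST1H2AI 176 and 119.7, and HIST1H2BF and HIST1H2AD 9.24 and 8.26. The widest difference was in HIST1H2BM and HIST1H2AJ, with 249 (212 to 290.2) and 74.8 (56.0 to 97.8), a ratio of 3.33. What part reads that could not be placed have in this difference was not tested. Gaps within pairs are about as short as the overhang of 213 bp, so partners can share reads at their edges, whose part in the likeness was not tested.

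**Figure D4:**
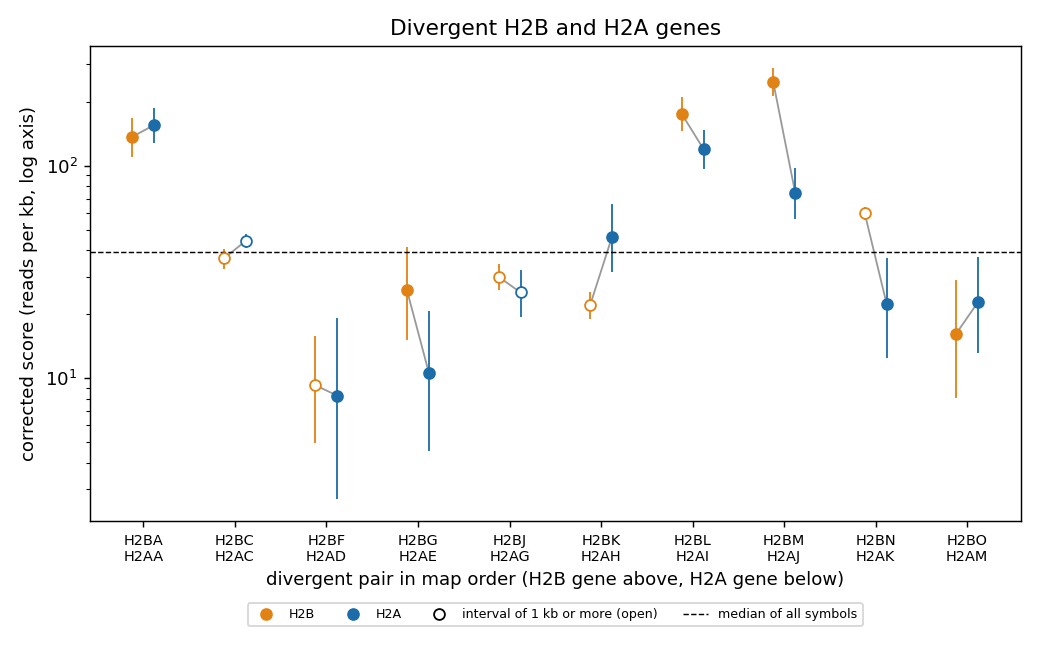
Corrected score (reads per kb, log axis) of the H2B gene (orange) and the H2A gene (blue) of each of the 10 divergent pairs in map order, with 95% Poisson intervals. Open circles are intervals of 1 kb or more and the dashed line is the all-symbol median. Partners lie within 2 times of each other in 6 of the 10 pairs, and HIST1H2BM is 3.33 times HIST1H2AJ.

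Peaks mostly covered a histone gene whole or missed it. A deposited peak overlapped 17 of the 55 members (30.9%, 19.1 to 44.8), against a background of 36.8% of all nuclear symbols, 43.6% of protein-coding symbols and 14.6% of intervals of like length. By subcluster, peaks overlapped 8 of 21 members (38.1%, 18.1 to 61.6) in the 27 Mb subcluster and 9 of 34 (26.5%, 12.9 to 44.4) in the 26 Mb subcluster. A peak lay within 1 kb of 20 members, against a background of 39.7% of all nuclear symbols, 45.2% of protein-coding symbols and 19.9% of intervals of like length. Of the 17 genes with a peak 14 were covered over their full length, and a peak covered the start site of 15. The peaks over these genes had a median width of 2100 bp, and the median member is only 0.479 kb long. Peaks come from the same library as the scores and are no independent measurement. A peak lay over 15 of the 21 high members (71.4%, 47.8 to 88.7), 2 of the 17 in between and 0 of the 17 low ones, for which the upper bound is 19.5%. The same shares over all high, in-between and low symbols were not computed, so this is no trait of histone genes.

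These genes lay in 14 peaks, most of them 1 to 5 kb wide. In the 27 Mb subcluster a peak of 5250 bp at 27830401 to 27835650 (hg19) held HIST1H2AL and HIST1H1B, and one of 4800 bp at 27838951 to 27843750 held HIST1H3I and HIST1H4L. A peak of 1800 bp at 27782401 to 27784200 covered HIST1H2BM whole and the start of HIST1H2AJ. In the 26 Mb subcluster HIST1H1A lay in a peak of 4200 bp at 26016151 to 26020350, which ends 368 bp before HIST1H3A. HIST1H4F, HIST1H4G, HIST1H3F and HIST1H2BH lay in a row of peaks of 3000, 3750, 2100 and 1050 bp from 26239951 to 26252550. HIST1H2AA and HIST1H2BA shared a peak of 1950 bp at 25726051 to 25728000.

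A group of 6 high genes had no peak. They were HIST1H2BL, HIST1H3J and HIST1H4J in the 27 Mb subcluster and HIST1H2BB, HIST1H3C and HIST1H2BE in the 26 Mb subcluster. HIST1H2BB and HIST1H3C scored 216 and 217, above most genes with a peak, yet the nearest peak began 3766 and 1554 bp away. HIST1H2BE, at 132, was 25797 bp from the nearest peak. HIST1H2BL, at 176, ended 242 bp short of one. No source used here states the settings of the peak caller.

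The sequence around the histone genes also carried peaks. In the large block of the 27 Mb subcluster 24.3% of the sequence lay in peaks, in the small block 0%, and in the 26 Mb subcluster from HIST1H1A to HIST1H4H 12.9%. Of chromosome 6 as a whole 5.73% lay in peaks. Between both blocks of the 27 Mb subcluster, from 27115318 to 27775256, which holds zinc finger genes and no HIST1 gene, the share was 27.7%. From the end of the 26 Mb subcluster to the small block it was 8.33%.

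The promoters of these genes were examined next. Sequences of 300 bases, from 250 before the start site to 50 after it, were found for 50 of the 55 members in RefSeq (GRCh38.p14). HIST1H4A, HIST1H4C, HIST1H2AH, HIST1H3I and HIST1H3J had none. The 6 shown set a high gene beside a low gene of the same type, for H4, H2B and H3, to let their promoters be compared, and were picked after the values were seen. Peaks are given on hg19 and were not placed on these sequences. Capitals mark the letters of 5 motifs on either strand, which may overlap: TATAAA (the TATA box), CCAAT, the octamer ATTTGCAT known from H2B promoters, AAACACA known from H1 promoters, and GGTCCG, part of the element bound by the H4 factor HINFP.
HIST1H4L, high, chr6:27873485-27873784, minus strand: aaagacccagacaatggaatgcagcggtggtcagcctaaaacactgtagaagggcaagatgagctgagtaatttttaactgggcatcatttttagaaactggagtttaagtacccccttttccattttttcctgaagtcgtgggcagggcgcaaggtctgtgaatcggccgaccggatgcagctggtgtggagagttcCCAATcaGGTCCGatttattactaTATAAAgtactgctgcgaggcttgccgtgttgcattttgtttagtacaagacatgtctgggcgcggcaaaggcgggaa
HIST1H4D, low, chr6:26189063-26189362, minus strand: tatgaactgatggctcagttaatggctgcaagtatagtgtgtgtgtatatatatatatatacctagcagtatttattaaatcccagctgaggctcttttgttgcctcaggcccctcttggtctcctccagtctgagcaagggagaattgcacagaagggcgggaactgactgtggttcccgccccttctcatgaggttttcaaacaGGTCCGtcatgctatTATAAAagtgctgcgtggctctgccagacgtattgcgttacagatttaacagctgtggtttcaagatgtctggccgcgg
HIST1H2BM, high, chr6:27814772-27815071, plus strand: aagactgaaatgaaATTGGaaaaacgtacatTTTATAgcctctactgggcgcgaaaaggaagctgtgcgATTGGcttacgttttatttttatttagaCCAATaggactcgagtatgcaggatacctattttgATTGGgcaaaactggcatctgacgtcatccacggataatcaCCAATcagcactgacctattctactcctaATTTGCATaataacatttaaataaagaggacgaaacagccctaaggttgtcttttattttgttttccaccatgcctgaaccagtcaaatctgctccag
HIST1H2BO, low, chr6:27893175-27893474, plus strand: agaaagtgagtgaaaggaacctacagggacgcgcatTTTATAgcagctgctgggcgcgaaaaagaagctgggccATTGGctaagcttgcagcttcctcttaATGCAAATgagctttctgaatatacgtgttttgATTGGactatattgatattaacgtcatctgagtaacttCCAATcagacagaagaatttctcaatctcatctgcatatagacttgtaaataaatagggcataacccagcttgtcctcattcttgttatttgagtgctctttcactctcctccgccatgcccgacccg
HIST1H3F, high, chr6:26250586-26250885, minus strand: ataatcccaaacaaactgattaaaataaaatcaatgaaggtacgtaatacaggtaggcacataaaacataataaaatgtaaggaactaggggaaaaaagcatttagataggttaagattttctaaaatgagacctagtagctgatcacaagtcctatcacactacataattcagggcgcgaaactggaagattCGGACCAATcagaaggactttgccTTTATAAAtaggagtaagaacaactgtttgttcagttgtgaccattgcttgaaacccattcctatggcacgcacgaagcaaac
HIST1H3B, low, chr6:26032050-26032349, minus strand: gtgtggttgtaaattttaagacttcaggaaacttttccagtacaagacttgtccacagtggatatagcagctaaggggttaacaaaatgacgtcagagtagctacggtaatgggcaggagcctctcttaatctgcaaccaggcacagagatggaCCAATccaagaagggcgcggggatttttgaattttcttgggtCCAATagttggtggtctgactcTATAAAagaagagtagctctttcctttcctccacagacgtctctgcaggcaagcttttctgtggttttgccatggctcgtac

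High and low genes held much the same promoter motifs. HIST1H4L and HIST1H4D both held GGTCCG and TATAAA, and HIST1H2BM and HIST1H2BO both held the octamer, CCAAT and TATAAA. In HIST1H2BM and HIST1H2BO, TATAAA lay on the opposite strand only, far upstream of the start site, in sequence shared with the divergent H2A partner. The octamer of HIST1H2BO was on the opposite strand too. Member counts below take matches on either strand, so a TATAAA need not be the TATA box of that gene. HIST1H3F and HIST1H3B both held CCAAT and TATAAA, and in HIST1H3F a GGTCCG on the opposite strand overlaps CCAAT. Over the members with a promoter, TATAAA was present in 13 of 19 high, 10 of 15 in-between and 11 of 16 low genes, against 11.5% of all 35116 promoters in the table. CCAAT was present in 17 of 19, 13 of 15 and 13 of 16, against 34.6% of all promoters. The other motifs followed the histone type. The octamer lay in 12 of 15 H2B and 9 of 11 H2A promoters, against 1.77% of all, and H2A and H2B partners share much of this sequence. GGTCCG lay in 9 of 10 H4 promoters, against 11.3% of all, and AAACACA in 6 of 6 H1 promoters, against 5.64% of all. Of high and low genes, the octamer was in 7 of 19 and 7 of 16, and GGTCCG in 4 of 19 and 3 of 16. Promoters of high genes held a median of 12 CpG dinucleotides (3 to 17), those in between 11.5 (5 to 18) and those of low genes 8.5 (5 to 25), with overlapping ranges. The median over all promoters was 14.

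Whether HIST1 genes were above or below the other genes around them depended on interval length. The HIST1 median of 36.6 was 0.512 times the median of 71.4 of the 61 other intervals of chromosome 6 from 25.5 to 28.5 Mb. Members under 1 kb had a median of 74.8, which was 1.05 times that of all neighbours and 1.22 times the 61.1 of the 22 neighbours under 1 kb. Members of 1 kb or more had a median of 31.7, which was 0.444 times the 71.4 of the 39 neighbours of that length. The quartiles were 16.1 and 152 for the HIST1 genes and 30.2 and 98.8 for these neighbours. Of the HIST1 genes 38.2% were high and 30.9% low, against 36.1% and 14.8% of the neighbours. Among neighbours of 1 kb or more the highest was ZNF184, a zinc finger gene, at 147, and the lowest HCG11, a noncoding RNA gene, at 12.1. The highest of all were AL021808.1 at 202, TRNAI2 at 175 and TRNAS32P at 174, with intervals of at most 0.113 kb. AL591044.1 and AL591044.4, of 0.07 kb each, had 0 reads, a count that allows up to 3, and RNU7-26P had 3.

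Histone genes elsewhere in the genome were mostly low. The HIST1 median of 36.6 was 2.97 times the median of 12.3 of 35 such genes, of which 17 belong to HIST2 to HIST4 and 18 are replication-independent variants. Of the 55 HIST1 genes 21 were high and 17 low, against 4 and 22 of the 35 others (11.4% and 62.9%). The background was 16.8% high and 21.6% low of all nuclear symbols. The high ones elsewhere were HIST3H3 at 185, H1FNT at 158, H2BFWT at 88.2 and H3F3C at 85.3, all known for expression in testis. Other histone genes known from the germline were not high, with H2BFM at 62.9, H1FOO at 20.3 and H2AFB1 at 12.3. Among the 35 others 8 had 0 reads. They are HIST2H2AA3 and HIST2H2AA4, HIST2H3A and HIST2H3C, HIST2H4A and HIST2H4B, and H2AFB2 and H2AFB3. HIST2H2AA3 and HIST2H2AA4 are near-identical copies, and in each other pair both intervals are of equal length. A lack of reads in these genes cannot be told from reads that could not be placed, yet all 8 count as low. Without intervals of 0 reads the HIST1 median was 1.99 times that of the others. No HIST1 gene had 0 reads, but their coding sequences resemble each other and mappability was not used here.

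Genes for histone supply had low scores. The list of 32 holds regulators of histone transcription, factors of histone mRNA processing and histone chaperones. The HIST1 median was 36.6 and that of the list 16.5, with 1 high (3.12%) and 21 low (65.6%) supply genes, against a background of 16.8% high and 21.6% low of all nuclear symbols and 12.2% and 25.4% of protein-coding ones. Interval lengths differ widely, with a median of 0.479 kb for HIST1 genes and 32.1 kb for the list. NPAT, the coactivator of replication-dependent histone genes, scored 43.5, HINFP, the H4 promoter factor, 14.9, and SLBP, which binds the histone mRNA stem-loop, 12.1. CHAF1A, a subunit of the chromatin assembly factor, was lowest at 11.6. The only high one was ZNF473, which takes part in histone mRNA processing and is a zinc finger gene of chromosome 19, at 149.6.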

How the data were processed

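The submitters' processing notes name Bowtie2, MACS and hg19 with no version or role. No source used here states the read filter, the library's total depth or whether IgG entered the peak calls. The authors deposited raw read counts per gene interval, the interval length in kb, and a gene score that equals reads divided by length (largest difference 3.03e-06). None is scaled to depth, IgG or copy number, so values compare only within this library. Reads sum to 78512210 over 40237 intervals, of which 54.7% overlap another. Chromatin was crosslinked with formaldehyde and sheared, per the labels' protocols. The deposited peaks (126965) carry coordinates only, on a grid of 150 bp.

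From these files the corrected score, its calls, exact 95% Poisson and Clopper-Pearson intervals, and overlaps of 1 bp or more were computed. Where a symbol had several intervals, the one scoring highest stood for it. Counts were simulated for 39983 gene intervals, with 10 draws each. True overhangs of 0.2 and 0.3 kb were estimated as 0.202 and 0.300 kb on average. These counts followed the fitted model, so they do not check that model on the data. Real bin medians departed from the line, with 36 reads against 24.7 fitted at 0.318 kb and 36 against 42.5 at 0.7 kb. No source used here states how reads were counted at interval edges. Members, lists and comparisons were chosen with earlier results of these data known. Genes named are the 3 highest and 3 lowest of each subcluster, the ends of each type, all H1 and H4 genes, those with a peak within 1 kb, and the ends of each comparison list. Others were named after their values were seen. Nearly identical copies may share or lose reads, and mappability was not used. RefSeq symbols (GRCh38.p14) were matched for 55 of 55 members. Where a member had several promoters, a motif in any of them was counted and CpG counts were averaged. Alternatives varied the overhang, thresholds, interval choice, overlaps, pooling and comparison sets. The software was matplotlib 3.10.9, scipy 1.17.1, pandas 2.3.3 and numpy 2.4.6 under Python 3.11.15.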

Additional observations from a re-analysis of the deposited data

How the results depend on the processing

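No paired analysis was possible because the study holds 1 H3K9me3 and 1 IgG library and no test compared them. No replicate could be left out. Values for the cluster and its types other than those below moved by less than their counting interval, or by at most 1.5 times for counts. The order of the subclusters among H3 genes turned round as given above. Of the single members' values, counted once per alternative, 22 moved by more than their counting interval and 242 by less. Nearly all of the 22 came from leaving out the overhang, which mostly raised high members further above the all-symbol median. Without the overhang the H1 median was 109. Without overlapping intervals the medians were 46.3 for H2A, 197 for H3 and 50.9 for H4. Of the 16 supply genes then left, 12 were low by an all-symbol median taken again without overlapping intervals. By the low call used above 11 were low. Both counts fell since fewer genes were compared. With pooled reads the ratio of the 27 Mb to the 26 Mb subcluster was 1.17, the ratio of HIST1 to other histone genes 1.38, and the type values were 105 for H1, 47.9 for H2A, 46.8 for H2B, 84.7 for H3 and 49.0 for H4. Pooling weights long intervals by construction. The count of divergent pairs within 2 times was 4 without overlapping intervals, from 6. Alternatives by length were added after the data were seen. Among members under 1 kb the subcluster ratio was 3.55. The ratio of these members to other histone genes, which were kept at every length, was 6.06. Their ratio to neighbours of every length was 1.05 in place of 0.512, a change of direction, as with neighbours under 1 kb too (1.22). The medians of members under 1 kb were 137 for H2B, 104 for H3 and 58.5 for H4. Members with pseudogene symbols numbered 0, so leaving them out was not run. High members numbered 19 to 23 and low members 12 to 24 over the thresholds, overhangs and comparison sets tried. Genes with 5 to 17 reads carry wide counting intervals and cannot be ordered among themselves.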

Other observations

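Long HIST1 intervals had lower peak cover than short ones. Peaks covered 38.9% of the summed length of the 41 members under 1 kb, and 1 of the 14 members of 1 kb or more, HIST1H2BN, touched a peak. HIST1H2BN spans 13.7 kb, and the 2 peaks in it, of 1350 and 1200 bp, do not cover its start site. HIST1H2BN scored 59.8, against 22.3 for its divergent partner HIST1H2AK.

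The reads of HIST1H2BB were equal to 14.2% of those of the HIST1H4A interval that contains it, over 0.431 of 22.6 kb. HIST1H4J and HIST1H4K, 6694 bp apart in the large block of the 27 Mb subcluster, had 50 and 18 reads over 0.374 and 0.354 kb. Their promoter sequences are nearly alike, and fewer reads cannot be told here from reads that could not be placed.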
